A study of Mus musculus with 2 samples.

Results

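The 10 genes described here, S100a8, S100a9, Camp, Ltf, Ngp, Lcn2, Lyz2, Chil3, Elane and Mpo, encode proteins that neutrophils store in their granules or keep in their cytosol for use against microbes. They were chosen by name, and all 10 were found among the 27254 genes of the deposited tables, where Chil3 stands under its older symbol Chi3l3. The tables hold Drop-seq counts of whole lung from C57BL/6J mice of genotype wt at postnatal day 1 (PND1), given as female in the study's methods. The study names 2 individual mice and 2 batches, read here as 1 mouse per batch. Drop-seq captures single cells with barcoded beads in droplets and counts each RNA molecule once through a unique molecular identifier (UMI). No treatment separates the mice, so the comparisons are between kinds of cells in Batch 1 and Batch 2, from lungs that were minced, digested with TrypLE and collagenase and put through red cell lysis.

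Neutrophils make their granule proteins in waves while they mature in blood-forming tissue. Elastase (Elane) and myeloperoxidase (Mpo), of the azurophil granules, are made first, at the promyelocyte stage, and the secondary granule proteins Camp, Ltf, Ngp and Lcn2 follow, so that the mRNAs of the early proteins are low in mature cells. S100a8 and S100a9 form calprotectin, a metal-binding protein of the cytosol that stays abundant through maturity and is shared with monocytes. Lyz2, a lysozyme that breaks bacterial cell walls, is also made by macrophages and by alveolar type 2 cells of the lung epithelium.

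The positions below are those of GENCODE M21 on GRCm38, the assembly also called mm10 that the reads were aligned to. S100a8 (chr3:90668978-90670035, plus strand) and S100a9 (chr3:90692632-90695721, minus strand) lie near each other on chromosome 3. Of the secondary granule genes 3 share chromosome 9, namely Camp (chr9:109847379-109849617, minus strand), Ngp (chr9:110419747-110423012, plus strand) and Ltf (chr9:111019271-111042767, plus strand). Lcn2 lies at chr2:32384633-32388252 (minus strand), Chil3 at chr3:106147554-106167564 (minus strand), Elane at chr10:79886247-79888215 (plus strand) and Mpo at chr11:87793581-87804413 (plus strand). Lyz2 (chr10:117277331-117282321, minus strand) has its close copy Lyz1 beside it (chr10:117287797-117292868, minus strand). All are protein-coding.

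The promoters of the 4 secondary granule genes are printed because their mRNAs were found together in part of the neutrophil-like cells. Lcn2 was also found in further cells of that class, as described further on. Each sequence runs 5′ to 3′ on the strand of its gene, from upstream of the start of transcription into the first bases of the transcript (300 bases), with starts and sequence taken from RefSeq on GRCm38.p6. These starts lie inside the GENCODE positions above, by 513 bases for Lcn2, 161 for Camp, 61 for Ngp and 21 for Ltf, so the Lcn2 window lies wholly within the GENCODE gene. The windows are chr9:109849407-109849706 (minus strand) for Camp, chr9:111019042-111019341 (plus strand) for Ltf, chr9:110419558-110419857 (plus strand) for Ngp and chr2:32387690-32387989 (minus strand) for Lcn2. Capitals mark matches to TTGCNNAA, a C/EBP-type motif, searched on both strands.
Camp: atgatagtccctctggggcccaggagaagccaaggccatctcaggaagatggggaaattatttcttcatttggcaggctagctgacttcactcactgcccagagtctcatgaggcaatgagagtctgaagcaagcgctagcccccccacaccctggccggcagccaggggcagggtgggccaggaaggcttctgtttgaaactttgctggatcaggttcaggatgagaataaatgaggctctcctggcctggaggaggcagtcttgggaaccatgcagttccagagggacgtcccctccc
Ltf: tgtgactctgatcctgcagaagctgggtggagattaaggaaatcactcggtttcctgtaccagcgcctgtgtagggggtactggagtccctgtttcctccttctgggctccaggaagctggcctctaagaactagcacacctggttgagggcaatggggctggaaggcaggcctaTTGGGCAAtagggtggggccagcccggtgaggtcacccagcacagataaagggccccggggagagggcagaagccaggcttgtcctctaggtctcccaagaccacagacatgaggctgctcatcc
Ngp: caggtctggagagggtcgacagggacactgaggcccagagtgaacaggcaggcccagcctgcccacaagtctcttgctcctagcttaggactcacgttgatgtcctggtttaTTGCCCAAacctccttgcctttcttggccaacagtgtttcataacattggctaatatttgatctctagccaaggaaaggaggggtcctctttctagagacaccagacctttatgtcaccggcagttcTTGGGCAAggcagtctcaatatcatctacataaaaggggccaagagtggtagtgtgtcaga
Lcn2: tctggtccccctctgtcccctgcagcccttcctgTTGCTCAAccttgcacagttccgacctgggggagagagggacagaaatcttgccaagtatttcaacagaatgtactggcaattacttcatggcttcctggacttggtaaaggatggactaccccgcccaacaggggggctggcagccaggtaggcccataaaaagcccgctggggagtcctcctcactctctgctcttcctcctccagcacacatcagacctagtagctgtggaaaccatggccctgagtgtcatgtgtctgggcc

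The C/EBP-type motif was found once in the windows of Ltf and Lcn2, in 2 places in that of Ngp, and not in that of Camp. It was in the windows of 4 of the 10 genes (S100a9, Ltf, Ngp and Lcn2), and in 10.8% of all 32851 promoter windows of 300 bases. GAGGAAGT, a PU.1-type motif, was in 3 of the 10 (S100a8, Elane and Mpo) and in 3.2% of all windows. TATAAA, the letters of the TATA box, was in 3 of the 10 (S100a8, S100a9 and Chil3) and in 13.6% of all windows. Counted from the RefSeq start it began at -30 in S100a8, at -3 in Chil3 and at 0 in S100a9. No match of 1 motif overlapped a match of another in these 10 windows. These are letter matches only, and binding was not measured.

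Cells with mitochondrial UMIs of at most 10% were kept, which left 2388 of 2389 cells in Batch 1 and 5615 of 7555 in Batch 2. They held 4432553 and 18232639 UMIs, with a median of 1386.5 and 2014 UMIs per cell, and no cell barcode was shared by the batches. The cells were grouped into 47 clusters without the 10 genes, and the clusters into 4 classes. The neutrophil-like class was a single cluster of 11 cells in Batch 1 and 92 in Batch 2 (median 2126 and 1932 UMIs per cell). Other immune cells numbered 171 and 442, epithelial cells 356 and 1479, and the remaining cells, mostly endothelial and mesenchymal, 1850 and 3602. The neutrophil-like cluster was named from 20 marker genes, none of them among the 10, so their levels are no separate check of the label. In this class 18 were detected in Batch 1 and all 20 in Batch 2. Their summed level was 730 and 2014 UMIs per 10000, against 0.574 to 23.3 in the other classes. Most of the summed UMIs of Batch 2 came from Stfa1, BC100530, Stfa2l1 and Stfa2. Ly6g, a surface marker of mouse neutrophils, was at 0 UMIs in Batch 1 and at 2 in Batch 2. The gene of the chemokine receptor Cxcr2 was at 5.45 and 11.7 UMIs per 10000 and the resistin-like gene Retnlg at 64.2 and 90.9. Markers of alveolar type 2 cells reached 3.77 and 68.6 UMIs per 10000 in the neutrophil-like class (3 and 8 of 8 markers detected), and those of monocytes 3.77 and 6.49 (3 and 10 of 11). Erythroid markers stood at 326 and 76.8, those of mesenchymal cells at 49.5 and 3.95 and those of endothelial cells at 23.5 and 3.39. These lists were thus higher in Batch 1, and those of alveolar type 2 cells and monocytes in Batch 2. In Batch 1 the mesenchymal markers stood at 5.15 in other immune, 4.42 in epithelial and 90.9 in the remaining cells. Endothelial markers stood there at 2.64, 11.1 and 39.5, and erythroid markers at 547, 501 and 777. Their part in the results was not tested.

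S100a8 and S100a9 were the members found in every neutrophil-like cell of both batches. S100a8 stood at 233 UMIs per 10000 UMIs in Batch 1 (95% Poisson interval 214 to 253, 556 UMIs) and at 492 in Batch 2 (483 to 501, 11456 UMIs). S100a9 stood at 282 (261 to 304) and 578 (568 to 588). Here and below, a level is the sum of a gene's UMIs over the cells of a class, per 10000 UMIs of all genes in these cells, and intervals cover counting error only. In other immune cells S100a8 was at 27.4 in Batch 1 and 14.1 in Batch 2, and S100a9 at 7.59 and 3.86. In epithelial cells S100a8 was at 0.126 and 0.188 and S100a9 at 0.214 and 0.208, and in the remaining cells both were between 0.202 and 0.539. In each batch the neutrophil-like levels of both genes were thus above those of the other 3 classes, with intervals that did not overlap.

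The secondary granule genes differed between the 2 mice. Camp, the cathelicidin antimicrobial peptide, stood at 0.839 UMIs per 10000 in the neutrophil-like cells of Batch 1 (2 UMIs, interval 0.102 to 3.03) and at 106 in those of Batch 2 (102 to 110). Ngp, the neutrophilic granule protein, stood at 5.45 (2.9 to 9.32, 13 UMIs) and at 80.2 (76.6 to 83.9). Ltf, which encodes the iron-binding lactoferrin, had 0 of 23844 UMIs in Batch 1, which allows a level of up to 1.26 per 10000, and 19 in Batch 2 (17.3 to 20.9). Lcn2, whose protein binds bacterial siderophores, stood at 2.94 (1.18 to 6.05, 7 UMIs) and 43.6 (41 to 46.4). The Batch 1 class holds 11 cells of 1 mouse, so the difference has no replicate, and mouse and batch cannot be told apart.

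Outside the neutrophil-like cluster, Camp, Ltf and Ngp were nearly absent. In the other classes Camp was between 0.00651 and 0.0591 UMIs per 10000, Ltf between 0 and 0.0326 and Ngp between 0 and 0.0394, and no cell of these classes had more than 2 UMIs of any of the 3. Monocyte-like cells, 63 in Batch 1 and 44 in Batch 2, had 0 UMIs of Camp, Ltf and Ngp in both batches. Lcn2 was different: it stood at 1.48 and 0.632 in epithelial cells and at 0.717 and 0.365 in other immune cells, against 0.0488 and 0.13 in the remaining cells.

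**Figure D1:**
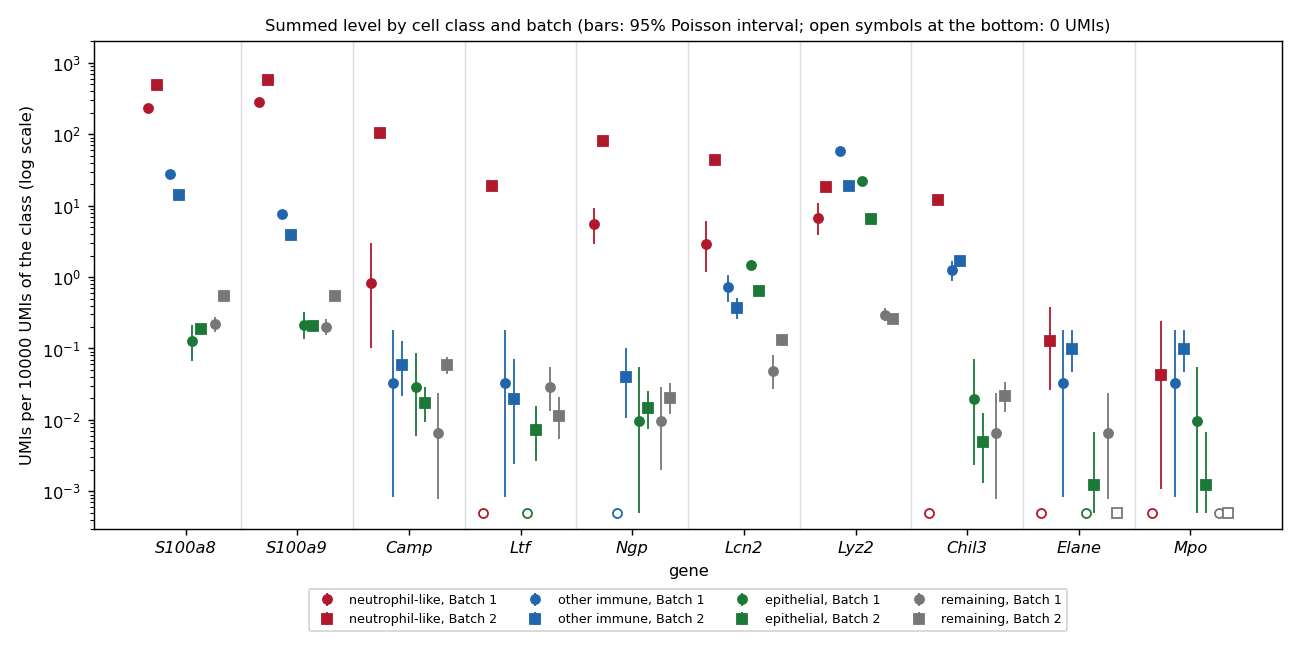
Levels of the 10 genes in 4 cell classes, in UMIs per 10000 UMIs on a log axis. Circles are Batch 1 and squares Batch 2, bars are 95% Poisson intervals, and open symbols at the bottom mark 0 UMIs. S100a8 and S100a9 were highest in neutrophil-like cells of both batches, whereas the red points of Camp, Ngp and Lcn2 lie far apart between the batches, and Lyz2 was higher in other immune cells in Batch 1, with overlapping intervals in Batch 2.

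Lyz2 was lower in neutrophil-like than in other immune and epithelial cells in Batch 1, and in Batch 2 its neutrophil-like and other immune levels could not be ranked. It stood at 6.71 UMIs per 10000 in Batch 1 (3.84 to 10.9) and 18 in Batch 2 (16.4 to 19.9) in this class, at 57.9 and 18.6 in other immune cells, at 22 and 6.57 in epithelial cells and at 0.299 and 0.258 in the remaining cells. Chil3, a chitinase-like protein also called Ym1, had 0 UMIs in the 11 neutrophil-like cells of Batch 1 (up to 1.26 per 10000) and stood at 12.1 in Batch 2 (10.7 to 13.6). In other immune cells it was at 1.24 and 1.67, and in epithelial and remaining cells at or under 0.0217. The azurophil genes were almost undetected anywhere. Elane had 0 and 3 UMIs in neutrophil-like cells, 1 and 10 in other immune cells and 3 in all epithelial and remaining cells together, and Mpo had 0 and 1, 1 and 10, and 2 in these. All 3 Elane UMIs and the Mpo UMI of the neutrophil-like class came from 1 cell of 9307 UMIs, the only neutrophil-like cell that Scrublet, a doublet caller, marked.

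The share of each gene's UMIs that fell in the neutrophil-like class differed by batch. In Batch 2 the 92 cells among 5615 held 98.2% of the Ngp UMIs, 97.2% of Camp, 96.1% of Ltf, 92.9% of S100a9, 84.8% of S100a8, 60.2% of Lcn2 and 59.5% of Chil3. In Batch 1 the 11 cells among 2388 held 67.9% of the S100a9 and 37.6% of the S100a8 UMIs, and 56% of S100a8 was in monocyte-like cells. They also held 13 of 17 UMIs of Ngp, 2 of 8 of Camp, 7 of 196 of Lcn2, 0 of 10 of Ltf and 0 of 42 of Chil3. Of the Lyz2 UMIs they held 0.386% in Batch 1 and 5.29% in Batch 2, where 54.5% and 68.1% were in epithelial cells.

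To test these differences, UMIs were summed by class and batch and the 8 sums were fitted in 1 model with edgeR's quasi-likelihood test, with batch as a block and Benjamini-Hochberg adjustment over 10691 genes. The classes of a batch come from the same mouse, and the clusters were made from other genes of the same cells, so these p-values are not independent of the grouping. A call does not show that both batches went the same way. Ltf and Mpo fell under the count filter, which asks for 0.0979 UMIs per 10000 or more in 2 of the 8 sums, and 8 of the 10 genes were tested. Camp and Ngp passed it only through the 2 neutrophil-like sums, and Elane through 1 of these and 1 other immune sum, so a high neutrophil-like value of Camp and Ngp was a condition of their being tested. Chil3 needed the other immune sums in the same way.

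Against other immune cells, 5 of the 8 genes tested were higher in neutrophil-like cells, where 1.43% of all genes tested were higher. Leaving out Camp, Ngp and Elane, which needed the neutrophil-like sums to pass the filter, 3 of 5 were higher. Ngp differed by 11.24 on the log2 scale (SE 0.93, adjusted p = 1.58e-06), Camp by 10.53 (SE 1.35, adjusted p = 0.00024) and S100a9 by 6.13 (SE 0.68, adjusted p = 4e-05). Lcn2 differed by 5.74 (SE 1.08, adjusted p = 0.00583), and without the batch block it did not pass (6.06, adjusted p = 0.055). S100a8 differed by 3.95 (SE 0.61, adjusted p = 0.00123). The size differed between the batches. Within Batch 1 alone, with a prior count of 2 and no test, the differences were 2.34 for S100a8, 4.46 for S100a9, 3.63 for Camp, 8.60 for Ngp and 1.27 for Lcn2, and within Batch 2 they were 5.64, 7.74, 11.14, 11.25 and 7.39. These values were scaled by TMM, edgeR's adjustment of the totals. The factors were 1.82 and 0.68 for the neutrophil-like sums of the 2 batches, and 1.08 and 0.971 for other immune sums. The differences, and their gap between the batches, are therefore not those of the levels above. In Batch 1 Ngp had 13 UMIs against 0 and Camp 2 against 1, so their values depend on the prior count. Lyz2 (-0.97, adjusted p = 0.495), Chil3 (2.13, adjusted p = 0.186) and Elane (0.91, adjusted p = 0.8) did not pass the test, and the single-batch values of Lyz2 were -3.86 in Batch 1 and 0.47 in Batch 2. Unscaled, the Lyz2 levels of Batch 2 were 18 in neutrophil-like and 18.6 in other immune cells.

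Against the remaining cells, 7 of the 8 were higher in neutrophil-like cells, and 5 of 5 without Camp, Ngp and Elane, where 5.4% of all genes were higher. Ngp (11.75), Camp (10.77), S100a9 (10.45) and S100a8 (10.15) had adjusted p-values of 5.84e-08, 9.57e-06, 7.27e-08 and 7.27e-08 in edgeR. Chil3 (9.16, adjusted p = 7.12e-06), Lcn2 (8.46, adjusted p = 4.12e-05) and Lyz2 (6.13, adjusted p = 4.97e-05) passed as well. The Chil3 call rested on Batch 2, since the neutrophil-like class of Batch 1 had 0 UMIs (single-batch value -0.87, set by the prior count). Elane did not pass (6.06, adjusted p = 0.0773), and 0 of the 8 were lower in edgeR (0 at an unadjusted p under 0.05, and 0 in DESeq2), where 3.78% of all genes were lower. With no count filter Ltf was tested too, and it was higher by 9.03 (adjusted p = 1.8e-33, edgeR). That p-value comes from a separate fit with all genes let in, so it does not rank with those above. The Ltf call also rested on Batch 2, and its p-value does not show that both batches went the same way. In Batch 1 the neutrophil-like cells had 0 Ltf UMIs and the remaining cells 9 (single-batch value -2.23, set by the prior count).

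Between other immune and remaining cells, 6 of the 8 were higher in the immune cells, and 4 of 6 without Chil3 and Elane, which needed the other immune sums to pass the filter, where 11.5% of all genes were higher. These were Lyz2 (7.10, adjusted p = 5.86e-06), Chil3 (7.03, adjusted p = 2.6e-05), S100a8 (6.20, adjusted p = 1.89e-06), Elane (5.15, adjusted p = 0.011), S100a9 (4.32, adjusted p = 5.04e-05) and Lcn2 (2.72, adjusted p = 0.0474), all from edgeR. The Elane call rested on 11 UMIs in other immune cells. The Lcn2 call held in 6 of 12 alternatives, and was lost with no batch block (adjusted p = 0.148), in DESeq2 (0.0855), without cells marked by Scrublet (0.0745), with no mitochondrial limit (0.0782) and with neutrophil-like cells set by a marker gate (0.403). The number of calls depended on the monocyte-like cluster. Without it, a setting that was tried after the data were seen, S100a8, Lyz2 and Chil3 were the 3 genes called, S100a9 had 0.85 (adjusted p = 0.236, edgeR) and Lcn2 0.85 (adjusted p = 0.625), and Elane was not tested. Ngp (0.50, adjusted p = 0.799) and Camp (0.24, adjusted p = 0.927) did not pass.

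Between epithelial and remaining cells, 2 of the 8 were higher, Lyz2 (5.75, SE 0.79, adjusted p = 2.37e-05) and Lcn2 (3.95, SE 0.94, adjusted p = 0.00347), where 13.4% of all genes were higher (edgeR). The other 6 had values between -1.16 and -0.50 and did not pass.

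Within the other immune class the members parted by cell type. Monocyte-like cells, named from Ccr2, F13a1 and other markers, had S100a8 at 75.7 UMIs per 10000 in Batch 1 and 74.6 in Batch 2, in 73% and 81.8% of cells. Their S100a9 was at 21 and 25.4, in 27% and 34.1% of cells. The S100a9 UMIs came to 0.278 per S100a8 UMI in Batch 1 (exact interval 0.239 to 0.322) and to 0.34 in Batch 2 (0.297 to 0.39), against 1.21 (1.08 to 1.35) and 1.17 (1.14 to 1.2) in neutrophil-like cells. Immune cells led by Ear2 and Mpeg1, 26 and 221 in number, had S100a8 at 1.6 and 11.8 with a ratio of 0.121 in Batch 2 (0.0914 to 0.157). In both clusters S100a8 was thus above S100a9, the reverse of the neutrophil-like cells. Of the 11 Elane UMIs in other immune cells all 11 were in monocyte-like cells, in 1 and 4 cells.

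Lyz2 was highest in monocyte-like cells (108 and 40.9 UMIs per 10000, in 98.4% and 97.7% of cells) and in those led by Ear2 and Mpeg1 (91.7 and 28.8). C1q-expressing macrophage-like cells had 40 and 11.1, and alveolar type 2-like cells 38 and 12. Batch 1 was above Batch 2 in each of these 4 types. In neutrophil-like cells, with 6.71 and 18, Batch 2 was the higher, so that they were below the macrophage-like and alveolar type 2-like cells in Batch 1 and above them in Batch 2.

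**Figure D2:**
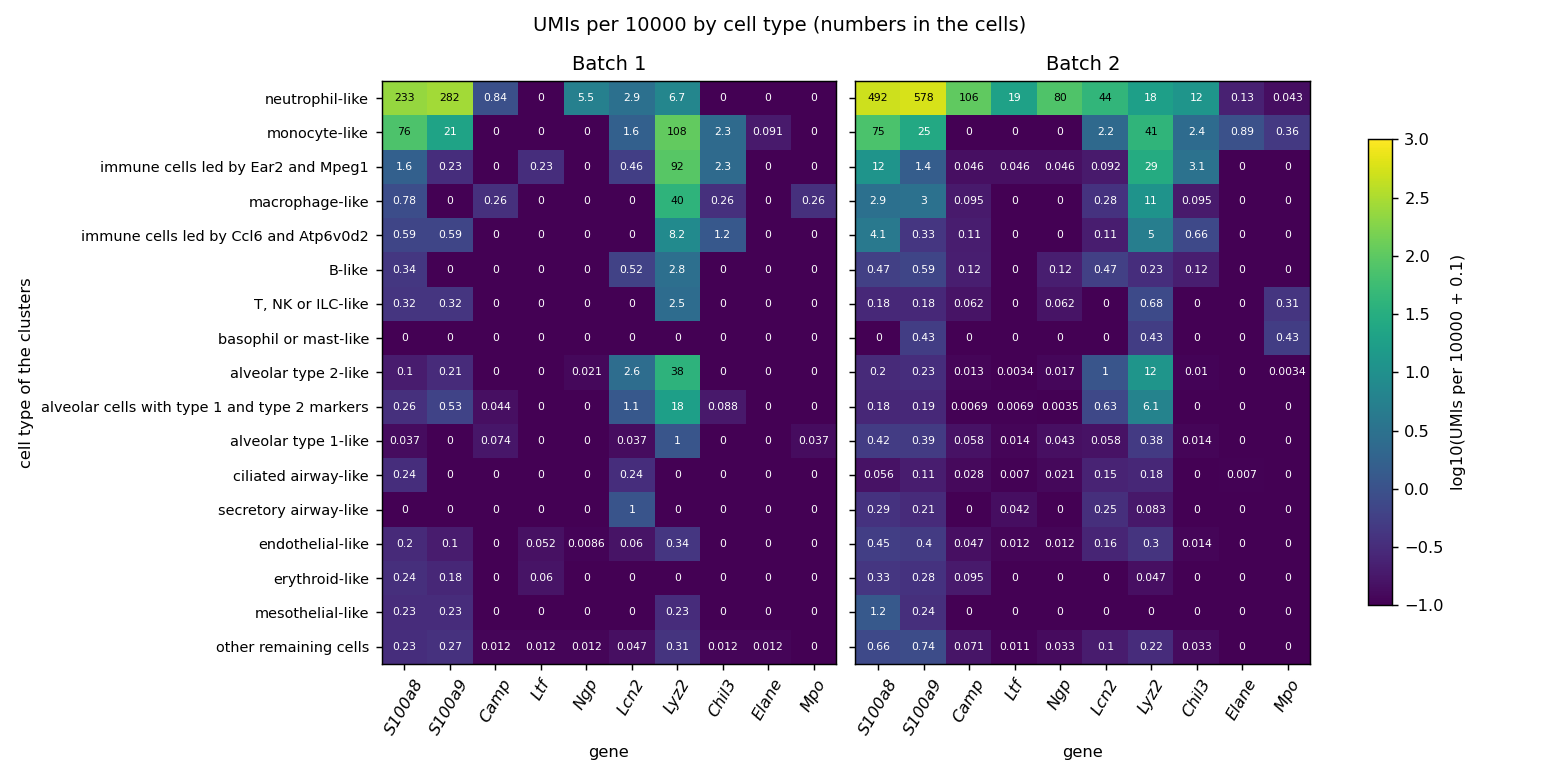
Levels of the 10 genes, in UMIs per 10000 UMIs, in each cell type of each batch, with colour on a log10 scale and the level printed in each field. Camp, Ltf and Ngp are at 19 or more in the neutrophil-like cells of Batch 2 and nowhere else, whereas Lyz2 is high in myeloid and alveolar type 2-like rows and Lcn2 is above 1 in neutrophil-like, monocyte-like and alveolar type 2-like cells of both batches.

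Lyz2 reads cannot be separated from those of Lyz1 without doubt. Of the 50-base windows in the last 500 bases of the Lyz2 transcript, 16.9% occur unchanged in Lyz1, and the aligner reported 1 place per read. The ratio of the 2 copies differed between classes. Lyz1 UMIs came to 0.404 per Lyz2 UMI in other immune cells of Batch 1 (0.37 to 0.441) and 0.297 in Batch 2 (0.27 to 0.327). In epithelial cells the ratio was 0.835 (0.785 to 0.888) and 0.939 (0.903 to 0.976), so the intervals of the 2 classes did not overlap in either batch. In neutrophil-like cells it was 0.5 (0.185 to 1.24) and 0.319 (0.261 to 0.388), with intervals that overlapped those of other immune cells in both batches. Chil3 shares 17.1% of such windows with Chil4, which was at 0 and 0.687 UMIs per 10000 in neutrophil-like cells, and none with Chil1. Chil1 was mostly epithelial (93.5% of its UMIs), at 6.7 and 1.91 in alveolar type 2-like cells and at 0.839 and 2.53 in neutrophil-like cells.

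Single UMIs of S100a8 and S100a9 were found in cells of every large class. These low levels were set beside the share in endothelial-like cells, taken here as a reference. Whether endothelial-like cells make either mRNA was not tested. In Batch 2 S100a8 was detected in 9.97% of 1584 endothelial-like cells (median 1917 UMIs) and in 9.26% of 1479 epithelial cells (median 3546 UMIs). In Batch 1 the shares were 3.72% of 592 (median 1326 UMIs) and 2.81% of 356 (median 2280 UMIs). With each cell thinned to 600 UMIs, these shares became 2.59% and 1.76% in Batch 2 and 1.69% and 0% in Batch 1. Detection of S100a8 in epithelial cells was therefore not above that in endothelial-like cells in either batch. S100a9 was detected in 9.94% of epithelial and 8.14% of endothelial-like cells in Batch 2, and in 3.37% and 2.03% in Batch 1, with overlapping intervals in both. Thinned to 600 UMIs these were 25 of 1479 and 49 of 1584 cells in Batch 2 and 4 of 356 and 5 of 592 in Batch 1. Of the 22 epithelial S100a9 UMIs of Batch 1, 10 were in 1 cell.

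Expressed as a percentage of the neutrophil-like level of the same batch, S100a8 in the remaining cells came to 0.0935% in Batch 1 (0.0714 to 0.121) and 0.109% in Batch 2 (0.0994 to 0.12), and S100a9 to 0.0716% and 0.0933%. These percentages cover all remaining cells, including a few with many UMIs, so they are no pure measure of background. In Batch 2 the values in the remaining cells were 0.0551% for Camp (0.0409 to 0.0727), 0.06% for Ltf (0.0286 to 0.111), 0.0256% for Ngp (0.0152 to 0.0406) and 0.179% for Chil3 (0.106 to 0.285). They were thus of the same order but not equal. Lcn2 at 0.298% (0.244 to 0.363) and Lyz2 at 1.43% (1.21 to 1.68) were above S100a8, and both were also expressed in epithelial cells of the same suspension. S100a9 per S100a8 in the remaining cells was 0.925 (0.644 to 1.33) in Batch 1 and 1 (0.88 to 1.14) in Batch 2, above the monocyte-like values of 0.278 and 0.34 in both. Against the neutrophil-like values the intervals overlapped in Batch 1 and lay just below in Batch 2. The source of these UMIs was not tested.

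Most of the low signal was spread thinly. In the remaining cells of Batch 2, 323 cells had 1 UMI of S100a8, 26 had 2 and 10 had 3 or more, and these 10 held 96 of the 471 UMIs. For S100a9, 8 cells with 3 or more held 127 of 472 UMIs, with up to 52 in 1 cell. For Lyz2, 4 such cells held 67 of 226 UMIs. In Batch 1, 59 remaining cells had 1 UMI of S100a8, 4 had 2 and none had more. Lyz2 in epithelial cells was not of this kind. Of 5402 Lyz2 UMIs in the epithelial cells of Batch 2, 5087 were in 376 cells with 3 or more, and of 2258 in Batch 1, 2209 were in 126 cells. Lcn2 lay between, with 226 of 520 epithelial UMIs in 48 such cells of Batch 2 and 60 of 152 in 11 cells of Batch 1, and with 51 of 114 UMIs of the remaining cells of Batch 2 in 10 cells. In alveolar type 2-like cells thinned to 600 UMIs, Lyz2 was detected in 54.6% and 28.6% and Lcn2 in 11.2% and 6.57%, against 1.69% and 1.39% and 0.169% and 0.758% in endothelial-like cells.

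**Figure D3:**
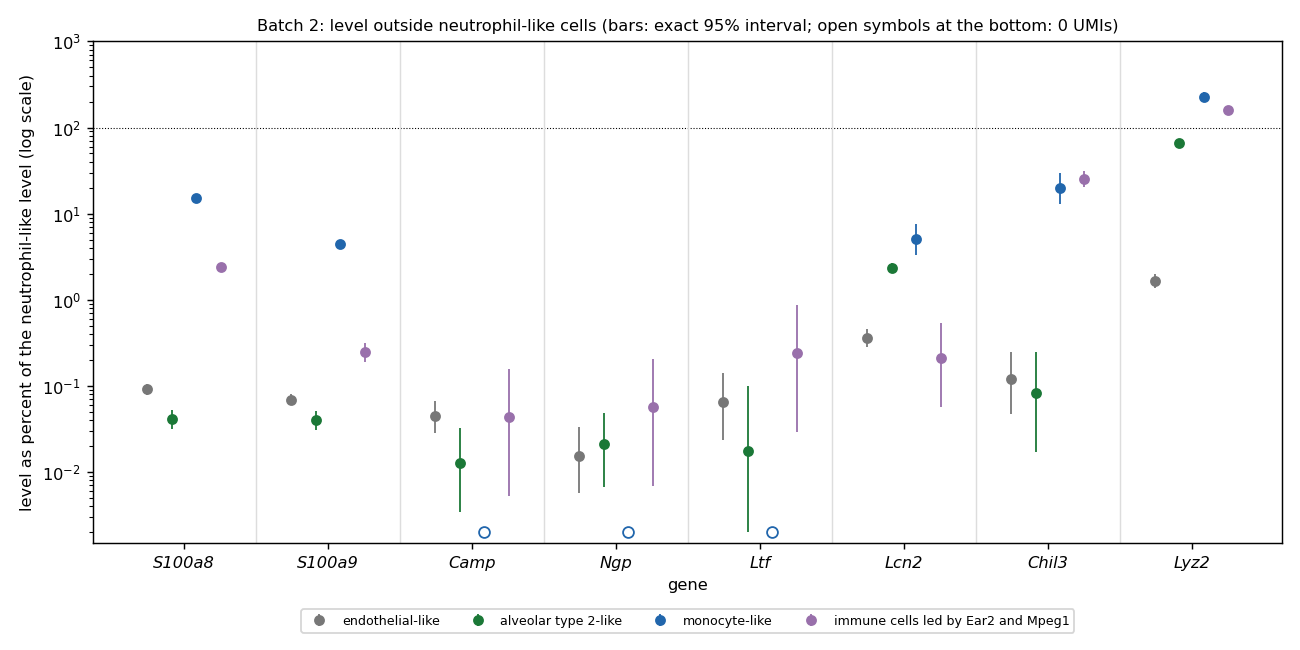
Level of 8 of the genes in 4 cell types of Batch 2, as a percentage of the level in neutrophil-like cells on a log axis. Bars are exact 95% intervals, open symbols at the bottom mark 0 UMIs, and the dotted line is the neutrophil-like level. Endothelial-like cells lie at 0.0911% for S100a8 and at 1.66% for Lyz2, and monocyte-like cells at 15.2% for S100a8 but at 0 for Camp, Ngp and Ltf.

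Among the 92 neutrophil-like cells of Batch 2 the secondary granule genes were unevenly spread. S100a8 was between 21.1 and 925 UMIs per 10000 in single cells with a median of 462, and S100a9 between 35.7 and 1186 with a median of 549. Ngp was detected in 49 of the 92 cells (53.3%, exact interval 42.6 to 63.7), Camp in 47, Ltf in 41, Chil3 in 42, Lyz2 in 60 and Lcn2 in 76. Where present they could be abundant, with up to 417 UMIs of Camp, 190 of Ngp, 72 of Lcn2, 50 of Chil3 and 30 of Ltf in 1 cell. Camp, Ngp and Ltf were carried by largely the same cells, while Lcn2 was also in 28 cells with no Ngp. Ngp and Camp were found together in 46 cells, Ngp alone in 3, Camp alone in 1 and neither in 42, and all 41 cells with Ltf had Ngp. With each cell thinned to 600 UMIs, Ngp and Camp were together in 43 cells, apart in 5 and both absent in 44.

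In Batch 1, 3 of the 11 neutrophil-like cells had Ngp UMIs, namely 1, 2 and 10. The cell with 10 was the only one with Camp (2 UMIs). These 3 cells had 146, 150 and 108 UMIs of S100a8, and the other 8 had between 2 and 59. All 7 Lcn2 UMIs were in the same 3 cells. The direction was that of Batch 2, but 3 cells give no measure of how common the pattern was in this mouse.

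**Figure D4:**
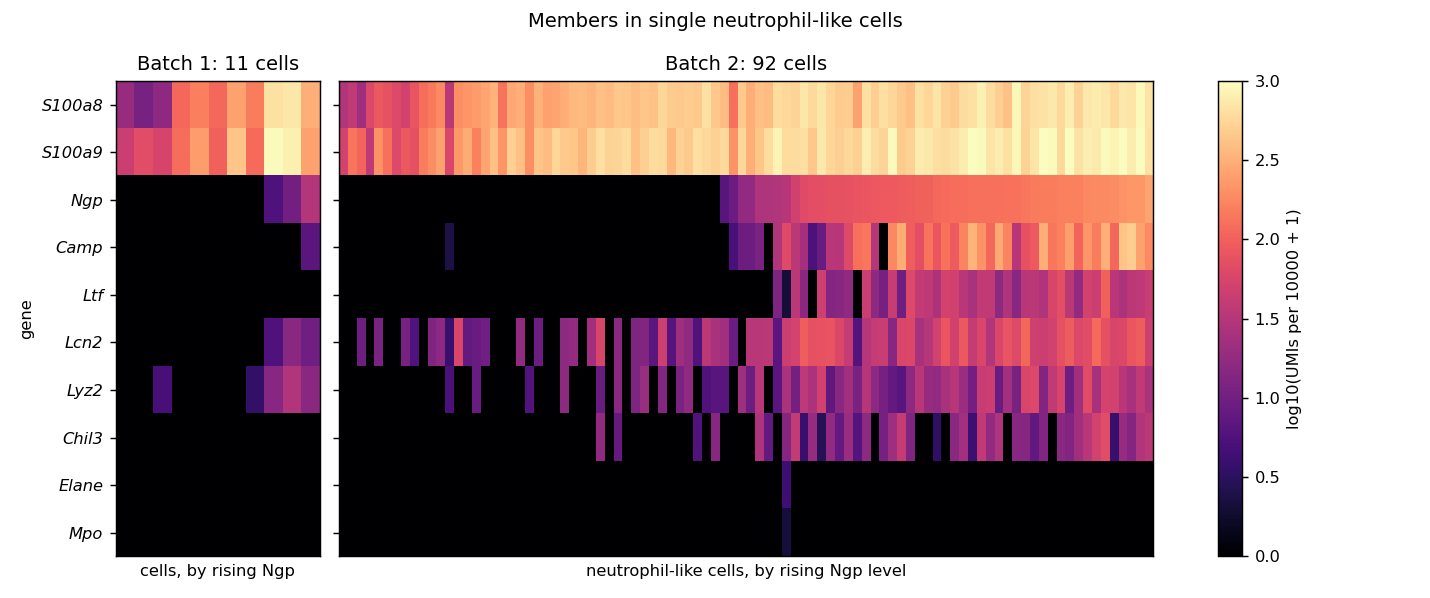
UMIs per 10000 of the 10 genes in each neutrophil-like cell of both batches, as log10 after adding 1, with cells in order of rising Ngp. S100a8 and S100a9 are present in all 103 cells, whereas Camp, Ltf, Lcn2, Lyz2 and Chil3 rise with Ngp on the right of the Batch 2 panel, where 49 cells have Ngp.

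The 49 cells of Batch 2 with an Ngp UMI were set beside the 43 without, a division chosen after the values were seen and given with no test. The former were deeper, with a median of 2842 UMIs against 1511. Levels per 10000 UMIs were higher in cells with Ngp for S100a8 (597 against 266), S100a9 (693 against 329), Lcn2 (58.8 against 10.9), Lyz2 (24.8 against 3.39) and Chil3 (17.2 against 1.22). Camp was at 155 (2458 UMIs) against 0.136 (1 UMI), and Ltf at 27.8 against 0 of 73668 UMIs. Other granule genes went both ways. Cybb, a subunit of the NADPH oxidase, was at 4.27 against 0.136 and Serpinb1a, an inhibitor of elastase, at 3.27 against 0.271, while Mmp8, the neutrophil collagenase, was at 15.6 against 18.9 and Hp, haptoglobin, at 10.9 against 13.6.

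The 20 marker genes of neutrophils were divided, with 10 higher in the cells with Ngp and 10 in those without. Among the latter, picked here for their size, Cxcr2 was at 7.17 UMIs per 10000 in cells with Ngp and at 21.6 in those without, Csf3r, the receptor for the growth factor G-CSF, at 0.754 and 5.16, Il1r2, the decoy receptor for interleukin 1, at 2.39 and 20.6, and Clec4d at 0.44 and 5.43. Fpr1, a receptor for formyl peptides, was at 1.76 and 1.22, and the stefin gene Stfa1 at 779 and 357. Thinned to 600 UMIs, Il1r2 was detected in 12.2% of the cells with Ngp and in 72.1% of those without, and Cxcr2 in 44.9% and 74.4%. The transcription factor gene Cebpb was at 1.01 and 5.29, and Cebpe, which is needed for secondary granules, at 0.88 and 0.271 (14 and 2 UMIs). The proliferation gene Top2a had 25 UMIs in cells with Ngp and 1 in the others, and Mki67 18 and 2. Across the 92 cells the rank correlation with Ngp per 10000 UMIs was 0.94 for Camp, 0.89 for Ltf, 0.79 for S100a8 and -0.72 for Il1r2. After thinning these were 0.91, 0.78, 0.71 and -0.64, and cells of 1 library are not replicates.

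**Figure D5:**
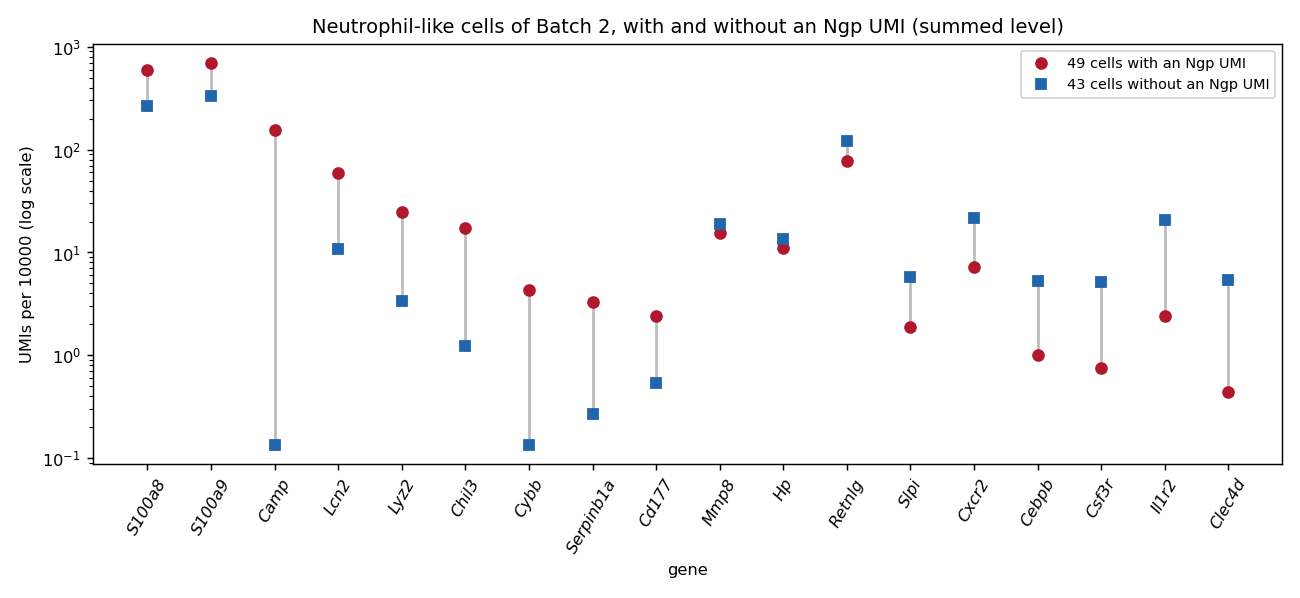
Summed level, in UMIs per 10000 UMIs on a log axis, of 18 genes in the neutrophil-like cells of Batch 2 with (red circles, 49 cells) and without (blue squares, 43 cells) an Ngp UMI. Members from S100a8 to Chil3 lie higher with Ngp, and Cxcr2, Cebpb, Csf3r, Il1r2 and Clec4d lie higher without it.

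Another 4 lists of related genes were read in the same fit, each beside the members. Of 24 other granule genes 19 were tested. In neutrophil-like cells 8 of them were higher than in other immune cells (1.43% of all genes) and 17 higher than in the remaining cells (5.4% of all genes), with a median of 1.99 and 6.45 on the log2 scale against -0.40 and -0.68 for all genes. Cd177 and Mmp9 passed the filter only through the neutrophil-like sums, and without them 6 and 15 of 17 were higher. Led by size the former were Cd177, a surface protein of neutrophils (1 and 42 UMIs, against 0 in other immune and remaining cells), Mmp9, the gelatinase of tertiary granules (9 and 113 UMIs, against 0 and 1 in other immune cells), Chil1 (5.90 against other immune cells), Itgb2l (5.90), the protease inhibitor Slpi (4.92) and the peptidoglycan-binding Pglyrp1 (4.85), all with adjusted p between 3.62e-06 and 0.0158 in edgeR. Itgb2l had 0 UMIs in the neutrophil-like cells of Batch 1. In other immune cells 13 of the 19 were higher than in the remaining cells (11.5% of all genes), led by the integrin Itgb2 (6.75), Mmp8 (6.37) and Cybb (6.26). Fcnb and Prtn3 needed the other immune sums to pass the filter, and without them 11 of 17 were higher. In epithelial cells 6 were higher (13.4% of all genes), among them Chil1 (6.71) and Lyz1 (5.30), and 1, Serpinb1a, was lower (-3.77), where 13.7% of all genes were lower.

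Of 8 granulocyte transcription factors 6 were tested. In neutrophil-like cells 2 were higher than in the remaining cells (5.4% of all genes), Spi1, which encodes PU.1 (8.38), and Cebpe (7.80), which passed the filter only through the neutrophil-like sums. Another, Runx1, was lower than in other immune cells (-3.61, adjusted p = 0.0251, edgeR), where 2.86% of all genes were lower. Gfi1, which acts in the granulocyte lineage, was not tested, with 5 UMIs in 1 neutrophil-like cell of Batch 2. Of 13 epithelial antimicrobial genes, a list that includes Lcn2 and Ltf, 7 were tested and all 7 were higher in epithelial than in remaining cells (13.4% of all genes), led by the surfactant collectin genes Sftpd (6.49) and Sftpa1 (6.46) and by Muc1 (5.59) and Wfdc2 (5.55), with a median of 5.55. Lyz1 (5.30), Lcn2 (3.95) and Slpi (3.42) completed the 7. Muc1 passed the filter only with the epithelial sums. Of the 7, 5 were also higher in neutrophil-like than in remaining cells (5.4% of all genes), and Sftpd (2.47) and Sftpa1 (2.34), products of alveolar type 2 cells, were among the 5, in Batch 2 only. Of 8 receptors of the members 6 were tested. In neutrophil-like cells Fpr2, the receptor of the cathelicidin peptide (9.24), and Cd33 (7.49) were higher than in remaining cells (5.4% of all genes). Cd36 was lower (-2.27), where 3.78% of all genes were lower. Against other immune cells 0 of 6 passed in edgeR or DESeq2, with 3 at an unadjusted p under 0.05 in edgeR. Fpr2, Spi1 and Sftpa1 were among the marker genes of the cell classes, so their values are not independent of the grouping.

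The genes whose levels were most like those of 4 members were sought over 31 sums of cell type and batch among 13318 genes, by Pearson's correlation of log levels, as a description. For S100a8 they were Mmp8 (0.953), Wfdc21 (0.931) and S100a9 (0.916). For Ngp they were Cd177 (0.967), Asprv1 (0.959) and Mmp9 (0.954). For Lyz2 they were Lyz1 (0.966), Adssl1 (0.81) and Adcy7 (0.772). For Lcn2, at lower values, they were Stfa3 (0.733), S100a9 (0.732) and Csta (0.731). The sums of a batch share a library, and Wfdc21 and Asprv1 were among the markers that named the neutrophil-like cluster.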

How the data were processed

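Whole lung of PND1 mice was profiled by Drop-seq in 2 batches. Per the labels and methods, the authors aligned reads to mm10 with Bowtie2 2.2.7, keeping 1 place per read, counted unique UMIs per gene and cell, and deposited the counts, which are not normalized. The tables hold cells with at least 500 genes. Reads are 3′ ends, so levels were not divided by gene length. Strand use in counting is not given in the sources used here.

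Cells with mitochondrial UMIs of at most 10% were kept (2388 and 5615 cells, 4432553 and 18232639 UMIs). Clusters came from 2000 variable genes, 40 principal components, 15 neighbours and Leiden resolution 2 (scanpy 1.11.5, leidenalg 0.10.2), leaving out the 10 genes, mitochondrial and hemoglobin genes. Clusters were named from fixed markers. UMI counts summed by class and batch were tested with edgeR 4.0.16 (TMM, filterByExpr, glmQLFit, R 4.3.3), with batch as a block and Benjamini-Hochberg adjustment at 0.05. The classes of a batch share 1 suspension, which pairs the sums. DESeq2 1.42.0 was an alternative, beside no block, no filter, other resolutions, clusters within each batch, a marker gate, other mitochondrial limits and removal of doublets marked by Scrublet. Levels have exact Poisson and shares exact Clopper-Pearson intervals at 95%, and a count of 0 allows up to 3 counts. Detection was also computed with each cell thinned to 600 UMIs. Doublets were otherwise kept (13 and 118 cells marked). The edgeR test was first tried on simulated sums drawn with no batch effect and no clustering, so that trial cannot show how these affect it.

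All 10 genes are named, with Lyz1, Chil1 and Chil4 as close copies, up to 6 genes of each list by size among those called, and the 3 genes most like S100a8, Ngp, Lyz2 and Lcn2. The genes and lists were chosen with earlier results of these data known. Symbols were matched through RefSeq synonyms, and Cebpd was not matched.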

Additional observations from a re-analysis of the deposited data

Results flagged for a closer look

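The 1940 cells of Batch 2 over the mitochondrial limit, 5030373 UMIs in all, entered only the alternative with no mitochondrial limit. In these cells 7 of the 10 genes had a higher level than in the remaining cells that were kept. Lyz2 was at 5.16 UMIs per 10000 (0.258 in the remaining cells), S100a8 at 1.65 (0.538), S100a9 at 1.00 (0.539), Lcn2 at 0.344 (0.13) and Chil3 at 0.294 (0.0217). Ngp was at 0.0338 (0.0205) and Ltf at 0.0179 (0.0114), from 17 and 9 UMIs. Camp was at 0.0577 (0.0582), and Elane and Mpo had 0 UMIs, which allows up to 0.00596 per 10000. S100a8 was detected in 14.5% of these cells. Clustered with no limit, 5 of them were neutrophil-like, 278 other immune, 704 epithelial and 953 remaining cells, so they are not a like for like match of the remaining class. The cause was not tested.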

How the results depend on the processing

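Of the members' log2 fold changes with a test, 325 kept their direction and side of the threshold, 11 lost the call, 6 gained it and 8 reversed. Of the single-batch values, which have no test, 29 stayed within the spread, 34 moved and 1 reversed. Calls of neutrophil-like against other immune cells numbered 4 to 7, against remaining cells 7 to 9, and epithelial against remaining cells 2 higher throughout. Other immune against remaining cells gave 6 and otherwise 4 to 7, with 3 under the marker gate and 3 without the monocyte-like cluster. The replicate block changed 2 calls: with no block, Lcn2 was at 6.06 (adjusted p = 0.055) against other immune cells and at 2.60 (adjusted p = 0.148) in other immune against remaining cells (edgeR).

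The neutrophil-like class itself depended on the grouping. Batch 1 had 0 such cells with clusters made within each batch (the class was then 1 sum, assumed to vary like the others) and 54 under the gate, and Batch 2 had 440 under the gate and 58 at a mitochondrial limit of 5%. Reversed values were Lyz2 against other immune cells (0.26 within each batch, 0.29 under the gate), Chil3 against remaining cells without Batch 2 (-0.87, and 9.19 without Batch 1), Camp (-1.01) and Ngp (-0.049) at 5% and Ngp (-0.10) with no limit in other immune against remaining cells, and, in epithelial against remaining cells, Camp (0.94) and Chil3 (0.39) in DESeq2 and Ngp (0.10) within each batch. Of these 9, 8 did not pass the test in either fit; Chil3 without Batch 2 had none. The causes were not tested.

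The median of all genes moved by 0.58 and 0.51 under the gate for the neutrophil-like comparisons and by 0.21 and 0.28 in DESeq2. Without Batch 1, the values against other immune cells were 5.64 for S100a8 and 7.39 for Lcn2, and without Batch 2 they were 2.34 and 1.27, all after TMM scaling. S100a8 was called lower in epithelial than in remaining cells with no count filter (-1.05, adjusted p = 0.0046, edgeR). The 11 neutrophil-like cells of Batch 1 limit what can be said of that mouse.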
